A study of Mus musculus with 68 samples.

Results

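The insulin-like growth factor (IGF) system was described over 10 genes: the ligands Igf1 and Igf2, the receptors Igf1r and Igf2r, and the binding protein genes Igfbp2, Igfbp3, Igfbp4, Igfbp5, Igfbp6 and Igfbp7. They were chosen by gene symbol from a table of read counts for 27179 Entrez Gene identifiers. All 10 were found, and all 10 were among the 14897 genes that passed the filter on low counts. RNA was sequenced from 17 cultures of mesenchymal stromal cells, the plastic-adherent progenitor cells of bone and marrow stroma, grown from the long bones of mice. Every mouse, controls included, carried the Prrx-1-Cre transgene, whose recombinase acts in the limb mesenchyme. The Het groups were Ezh2 fl/+ and so could lose 1 Ezh2 allele in cells with Cre, and the WT groups were Ezh2 +/+. Het 12M held 6 biological samples from mice aged 12 months (S1, S9, S11, S15, S16 and S17), and WT 12M held 4 of that age (S2, S6, S7 and S13). Het 3M held 3 biological samples from mice aged 3 months (S8, S10 and S14), and WT 3M held 4 of that age (S3, S4, S5 and S12). Each was sequenced as 4 technical replicates, which were summed to between 13687876 and 28597221 counts. By label, S1, S9, S11, S15 and S16 of Het 12M and S6 and S7 of WT 12M were female. So were S14 of Het 3M and S3 and S4 of WT 3M, and all others were male. No label states that each biological sample came from its own mouse, so p-values measure the spread between these cultures.

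IGF1 and IGF2 are secreted peptides that signal growth and survival through the IGF1 receptor, a tyrosine kinase. The IGF2 receptor, which also carries mannose 6-phosphate enzymes to lysosomes, takes up and clears IGF2. The binding proteins hold most IGF outside cells and either keep it from the receptor or deliver it, and proteases free it again. In bone both ligands are made by stromal cells and osteoblasts and stored in the matrix. The protein made from Ezh2 is the catalytic subunit of PRC2, a Polycomb complex that places a repressive histone mark.

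Some libraries stood apart. Levels are given in CPM, read counts scaled to a common library size. Xist and the mean of 4 Y-linked genes went against the labelled sex in 3 of the 4 WT 12M libraries, and S7 had both kinds of transcript. For S2 and S13, both male by label, Xist reached 362 and 295 CPM and the Y-linked mean was 0 and 0.131 CPM. For the female-labelled S6, Xist was at 0.192 CPM and the Y-linked mean at 28.4 CPM, while S7, with the same label, showed 81.6 CPM of Xist beside a Y-linked mean of 34.96 CPM. The other 13 libraries matched their labels. Differences with WT 12M below refer to the libraries that carry that label. Het 3M S8 and S10 were the most alike of the 136 pairs of biological samples, at a chi-square per degree of freedom of 18.5 against 40.9 for the next pair. They still differed by far more than the technical replicates of 1 sample, at no more than 1.06, and were counted as separate. Stromal markers were present in every library, 10 of 10, and summed to 6744 CPM in Het 12M S15, the lowest library. Het 12M S9 held 38220 CPM of 12 macrophage and blood markers, WT 12M S6 held 1215 CPM of 9 Schwann and neural crest markers and WT 3M S5 held 87.5 CPM of 8 endothelial markers, the highest value of each list. Ezh2, the targeted gene, stood in CPM at 8.61, 18.2 and 25.2 (lowest, median and highest) in Het 12M and at 7.63, 35.7, 13.1 and 22.8 in WT 12M S2, S6, S7 and S13. It stood at 11.8, 12.8 and 8.47 in Het 3M S8, S10 and S14 and at 13.6, 13.4, 14.3 and 9.17 in WT 3M S3, S4, S5 and S12. The fitted log2 difference of Ezh2 between Het and WT was -0.16 ± 0.36 (SE) at 12 months and -0.19 ± 0.43 at 3 months, and the groups overlapped at both ages. The counts are of whole genes, so reads of the floxed region were not counted apart, and recombination was not tested.

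Igfbp2 and Igfbp4 each held the largest share of the binding protein transcripts in 7 of the 17 cultures. Their promoters are shown for that reason, and that of Igfbp5 because it is the neighbour of Igfbp2. On chromosome 1, Igfbp2 (Entrez Gene 16008, 72824480 to 72852474, forward strand) and Igfbp5 (16011, 72858065 to 72874865, reverse strand) lie tail to tail, 5590 bases apart. Igfbp4 (16010) lies on chromosome 11 from 99040005 to 99052655 on the forward strand. Each window holds the 250 bases before a transcript start (for Igfbp2 the first of 2 starts), 5′ to 3′ on the strand of the gene, from RefSeq on GRCm38.p6. The Igfbp4 window lies inside the span given for that gene, before a start downstream of the first base of the span. Capitals mark the GC box GGGCGG, a site type of the Sp1 family, or TATAAA, the core of the TATA box, each searched on both strands (as CCGCCC or TTTATA on the other), and no match of one overlapped a match of the other.
Igfbp2, chr1:72824230-72824479, forward strand: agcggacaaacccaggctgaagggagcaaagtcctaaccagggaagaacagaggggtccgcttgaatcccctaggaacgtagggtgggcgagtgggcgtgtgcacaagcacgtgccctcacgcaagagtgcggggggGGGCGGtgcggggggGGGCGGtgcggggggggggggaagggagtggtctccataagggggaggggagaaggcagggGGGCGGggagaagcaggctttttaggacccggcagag
Igfbp4, chr11:99040994-99041243, forward strand: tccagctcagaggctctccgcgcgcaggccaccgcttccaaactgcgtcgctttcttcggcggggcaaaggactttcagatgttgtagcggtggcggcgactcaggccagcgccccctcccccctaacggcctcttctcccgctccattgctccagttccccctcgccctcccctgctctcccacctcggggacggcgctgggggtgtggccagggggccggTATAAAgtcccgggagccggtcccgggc
Igfbp5, chr1:72874866-72875115, reverse strand: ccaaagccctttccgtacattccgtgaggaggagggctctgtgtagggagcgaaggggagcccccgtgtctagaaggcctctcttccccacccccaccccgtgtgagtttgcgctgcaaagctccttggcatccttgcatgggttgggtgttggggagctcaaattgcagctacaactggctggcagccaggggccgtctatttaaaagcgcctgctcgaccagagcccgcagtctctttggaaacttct
The Igfbp2 window held 3 GC boxes and 14 CpG dinucleotides. The Igfbp4 window held no GC box, 22 CpG dinucleotides and 1 TATAAA whose first letter lies 28 bases before the start. The Igfbp5 window held 10 CpG dinucleotides and neither motif. Of the 32851 RefSeq mouse windows of this length, 32.74% held a GC box and 12.37% held TATAAA on either strand, and the median was 6 CpG dinucleotides.

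Igfbp2, Igfbp4, Igfbp5, Igfbp6 and Igfbp7 had higher means per exon length than both ligands and both receptors in all 4 groups. Igfbp3 did not, since Igf1 lay above it in Het 12M and both ligands lay above it in WT 3M. Levels of different genes were compared as CPM per kilobase of exon, after scaling by the trimmed mean of M values (TMM), which corrects library size for composition. Union exon lengths ran from 1112 bases for Igfbp6 to 16791 for Igf1r, with 1209 for Igfbp7 and 9904 for Igf1. The order rests on these lengths, and the transcripts in use were not determined. In CPM not divided by length, Igf1 in Het 12M averaged 608, below Igfbp2 and Igfbp4. It lay above Igfbp5 at 524, Igfbp7 at 479 and Igfbp6 at 232. Igf1r in WT 3M averaged 187 CPM, above Igfbp3 at 84.1. In Het 12M, Igfbp2 averaged 1321 ± 1674 CPM per kb (SD, n = 6), Igfbp4 403 ± 84.7, Igfbp7 396 ± 273 and Igfbp6 209 ± 87.9. In WT 3M the same genes averaged 498 ± 386, 429 ± 290, 479 ± 277 and 231 ± 112 CPM per kb (SD, n = 4). Igfbp5 and Igfbp3 were the least abundant binding protein genes by mean in Het 12M, WT 12M and WT 3M. Igf1 averaged 61.4 ± 41.5 CPM per kb in Het 12M, 30.3 ± 6.76 in WT 12M, 43.9 ± 22.8 in Het 3M and 35.7 ± 21.6 in WT 3M. Igf1r, at 7.23 ± 2.38, 7.17 ± 1.92, 7.29 ± 2.31 and 11.1 ± 2.07 CPM per kb in the same 4 groups, was the lowest of the 10 genes by mean in 3 groups. In Het 12M it was the lowest but one, above Igf2 at 5.32 ± 2.89. When the 10 genes were ranked by mean within a group, the libraries of most neighbours in the order overlapped. They did not overlap between Igfbp3 and Igf1 in WT 12M, between Igfbp6 and Igfbp3 and between Igf2r and Igf1r in Het 3M, and between Igf2r and Igf1r in WT 3M.

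The leading binding protein differed from culture to culture within every group. Igfbp2 had the largest share of the summed CPM per kb of the 6 binding protein genes in 7 libraries and Igfbp4 in another 7. Igfbp6 led in WT 12M S2, Igfbp5 in WT 3M S5 and Igfbp7 in WT 3M S12. The share of Igfbp2 ran from 13.5% in Het 12M S9 to 81.6% in Het 12M S15. The share of Igfbp5 ran from 0.483% in Het 12M S15 to 30.9% in WT 3M S5. In Het 12M the mean Igfbp2 share was 38.2 ± 26.3% (SD, n = 6) and in WT 12M it was 33.8 ± 12.5% (SD, n = 4). In Het 3M it was 29.9 ± 23.8% (SD, n = 3) and in WT 3M it was 25.4 ± 9.67% (SD, n = 4), so the groups set against each other in the design differed by less than the SD of either.

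**Figure D1:**
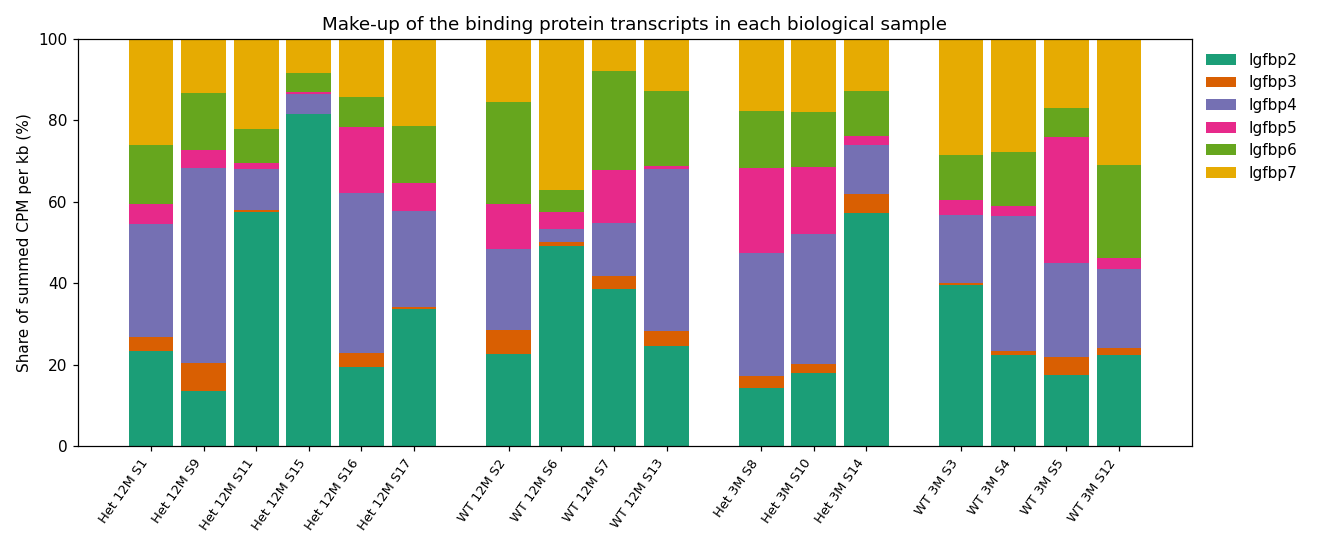
Share (%) of each of the 6 binding protein genes in their summed CPM per kb, with 1 stacked bar per biological sample and the 4 groups set apart from left to right as Het 12M, WT 12M, Het 3M and WT 3M. Igfbp2 fills 81.6% of the bar of Het 12M S15 and 13.5% of that of Het 12M S9, and Igfbp5 is widest in WT 3M S5 at 30.9%.

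The study's design sets Het against WT at each age and 12 against 3 months in each genotype, and the difference between the genotype effects at the 2 ages was tested as an interaction. With edgeR's quasi-likelihood test and Benjamini-Hochberg adjustment over 14897 genes at a threshold of 0.05, 0 of the 10 IGF genes were called in any of these 5 comparisons, and 0 genes were called in all (0%). The comparisons share their groups, so their values are not independent. At an unadjusted edgeR p under 0.05, Het 12M against WT 12M had 0 IGF genes and 1247 genes in all (8.37%), and Het 3M against WT 3M had 0 and 239 (1.6%). WT 12M against WT 3M had 0 and 1224 (8.22%), the interaction had 0 and 858 (5.76%), and Het 12M against Het 3M had 1, Igf2, and 489 (3.28%), of which 256 were lower (1.72%). DESeq2 called 0 IGF genes in each of the 5. Of the 14671 genes it tested, it called 106 in Het 12M against WT 12M (0.723%), 0 in Het 3M against WT 3M (0%), 53 in WT 12M against WT 3M (0.361%), 1 in Het 12M against Het 3M (0.00682%) and 35 in the interaction (0.239%). The median log2 difference of the 10 genes was -0.19 in Het 12M against WT 12M and -0.19 in Het 3M against WT 3M, where that of all genes tested was 0.05 and -0.02. It was -0.06 in WT 12M against WT 3M and 0.03 in Het 12M against Het 3M, where that of all genes was 0.04 and 0.07. In the interaction it was 0.53, where that of all genes was 0.08. The spread between cultures of 1 group was wide, with a common biological coefficient of variation of 0.512. Given as log2 CPM over the 17 libraries, the SD was 1.95 for Igf2, 1.46 for Igfbp5, 1.42 for Igfbp2, 1.32 for Igfbp3, 1.03 for Igf1 and 0.53 for Igf1r, against a median of 0.54 over all genes tested. That of Igf2 exceeded the SD of 97.65% of the genes tested.

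**Figure D2:**
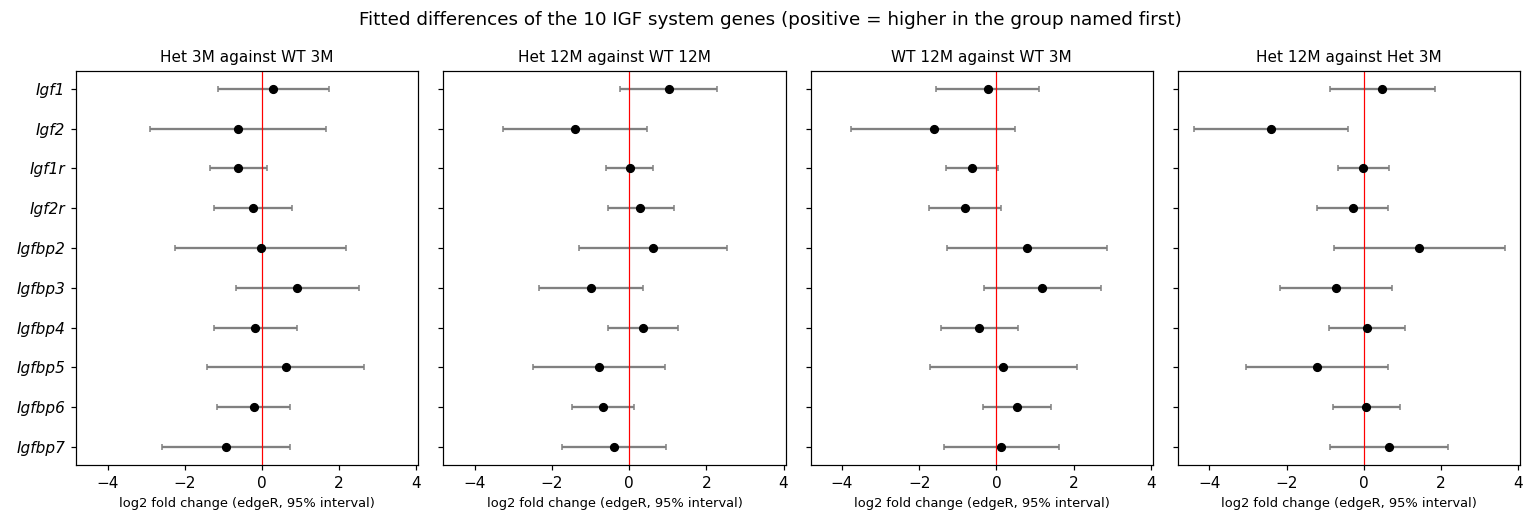
Fitted log2 fold change (horizontal axis, edgeR, with 95% confidence intervals) of the 10 IGF genes in the 4 comparisons of the design, positive where the group named first was higher. The interval excludes 0 in 1 of the 40 cases, that of Igf2 in Het 12M against Het 3M at -2.41.

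Igf2 was the most variable member, and most cultures from mice aged 12 months had little of it. Igf2 encodes the ligand of fetal growth and is expressed from the paternal allele. In TMM-scaled CPM, the Het 12M libraries had 3.66 (lowest, S15), 38.8 (median) and 42.9 (highest, S16), and WT 12M had 16.8, 10.1, 40.25 and 254 in S2, S6, S7 and S13. Het 3M had 208, 259 and 18.6 in S8, S10 and S14, while the WT 3M cultures S3, S4, S5 and S12 held 136.5, 194, 598 and 68.0. All Het 12M libraries and 3 of 4 WT 12M libraries thus lay at or below 42.9 CPM, with WT 12M S13 apart, and 6 of the 7 libraries from mice aged 3 months lay at 68.0 CPM or above, with Het 3M S14 apart. Igf2 was fitted lower in Het 12M than in Het 3M by -2.41 ± 0.94 on the log2 scale (SE, 95% confidence interval -4.41 to -0.41, edgeR unadjusted p = 0.0209, adjusted p = 0.946), and the groups overlapped through Het 3M S14. By label, Het 12M was female but for S17 and Het 3M male but for S14. Age and labelled sex thus cannot be fully told apart between these groups. With a term for the labelled sex, the difference of Igf2 between them was -1.0. That term was shared by all groups, so it also rests on the WT 12M labels that sex-linked transcripts go against. WT 12M S13, male by label and with 254 CPM of Igf2, is among these. In WT 12M against WT 3M it was -1.63 ± 1.00 (interval -3.76 to 0.49, edgeR adjusted p = 0.651), and it was -3.45 without WT 12M S13 and -0.73 without WT 3M S5. Between the genotypes it was -1.40 ± 0.88 at 12 months (edgeR adjusted p = 0.69), or 0.42 without WT 12M S13, and -0.62 ± 1.07 at 3 months, or 0.28 without WT 3M S5. The interaction was -0.78 ± 1.38, or 1.03 without WT 12M S13.

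H19, the noncoding RNA made from the maternal allele beside Igf2, was on a list of genes acting on Igf2 or Igf2r. In CPM it had 2.16 (lowest, S15), 233 (median) and 415 (highest, S17) in Het 12M and 34.5, 28.8, 51.6 and 141.5 in WT 12M S2, S6, S7 and S13. It had 794.5, 1004 and 71.9 in Het 3M S8, S10 and S14 and 161, 259, 685.5 and 119 in WT 3M S3, S4, S5 and S12. As for Igf2, S15 was the lowest library, S13 the highest of WT 12M and S14 the lowest of Het 3M. The difference of H19 was -2.26 ± 1.03 in WT 12M against WT 3M (edgeR adjusted p = 0.592), -1.53 ± 0.95 in Het 12M against Het 3M, 1.76 ± 0.96 in Het 12M against WT 12M and 1.03 ± 1.06 in Het 3M against WT 3M. WT 3M S5, the library with most Igf2, was also the one with most endothelial markers, at 87.5 CPM, and Het 3M S8 and S10 came next, at 50.8 and 38.0 CPM. That list summed to 5.95 to 21.9 CPM in Het 12M and 6.53 to 22.1 in WT 12M. The sums were 9.72 to 50.8 CPM in Het 3M and 7.98 to 87.5 in WT 3M. In Het 12M S1, Het 12M S15 and Het 3M S14, 4, 2 and 4 of the 8 endothelial markers were detected. Cdh5 and Kdr stood at 0 in these libraries, while Egfl7 stood at 2.83, 5.75 and 7.73 CPM. WT 12M S13 had 254 CPM of Igf2 with 9.4 CPM of these markers. In bulk RNA fewer cells of a type and less RNA per cell cannot be told apart, and the part of the endothelial markers in the Igf2 values was not tested. Of the 5723 exon bases of Igf2 (Entrez Gene 16002, chromosome 7, 142650768 to 142666816, reverse strand), 3596 are shared with the gene model Gm49394 on the same strand and 98 with Igf2os on the other. Reads shared with Gm49394 come from the same strand and cannot be told apart by it. The library kit does not mark the strand, so those shared with Igf2os cannot be told apart either.

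Igf1, the ligand that acts through the growth hormone axis after birth and is also made by stromal cells and macrophages, had its highest mean in Het 12M. In CPM, Het 12M had 60.2 (lowest, S15), 599.8 (median) and 1166 (highest, S9). WT 12M had 368, 225, 344 and 265 in S2, S6, S7 and S13. Het 3M had 518, 607 and 179.7 in S8, S10 and S14, with 226, 305, 668 and 213 in WT 3M S3, S4, S5 and S12. At 12 months 4 of 6 Het libraries lay above every WT library, while S17 at 277 CPM lay among them and S15 lay below. Igf1 differed by 1.02 ± 0.59 on the log2 scale (interval -0.24 to 2.27, edgeR adjusted p = 0.664). The difference was 0.30 ± 0.68 in Het 3M against WT 3M, or -0.03 without Het 3M S10, and -0.23 ± 0.63 in WT 12M against WT 3M, or 0.27 without WT 3M S5. It was 0.48 ± 0.64 in Het 12M against Het 3M, and the interaction was 0.72 ± 0.90. Macrophage and blood markers were fitted higher in Het 12M than in WT 12M, 12 of 12, the median log2 difference being 2.03 and edgeR calling 0. That direction rested on Het 12M S9: without it 2 were fitted higher and 10 lower, at a median of -0.45, as found by leaving out each library after seeing the data. Igf1 itself kept its direction without S9, at 0.73. The markers summed to 35.8 to 38220 CPM in Het 12M and 43.4 to 2788 in WT 12M. The sums were 146 to 1368 CPM in Het 3M and 151 to 1795 in WT 3M. In Het 12M S15, 9 of the 12 were detected, with Cd14 at 13.4 and Lyz2 at 12.8 CPM and with Ptprc, Adgre1 and Fcgr1 at 0. The part of these markers in the Igf1 values was not tested, and Het 12M S1, with 259 CPM of them, had 947 CPM of Igf1. Igf1 (Entrez Gene 16000) lies on chromosome 10 from 87858265 to 87937047, forward strand.

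**Figure D3:**
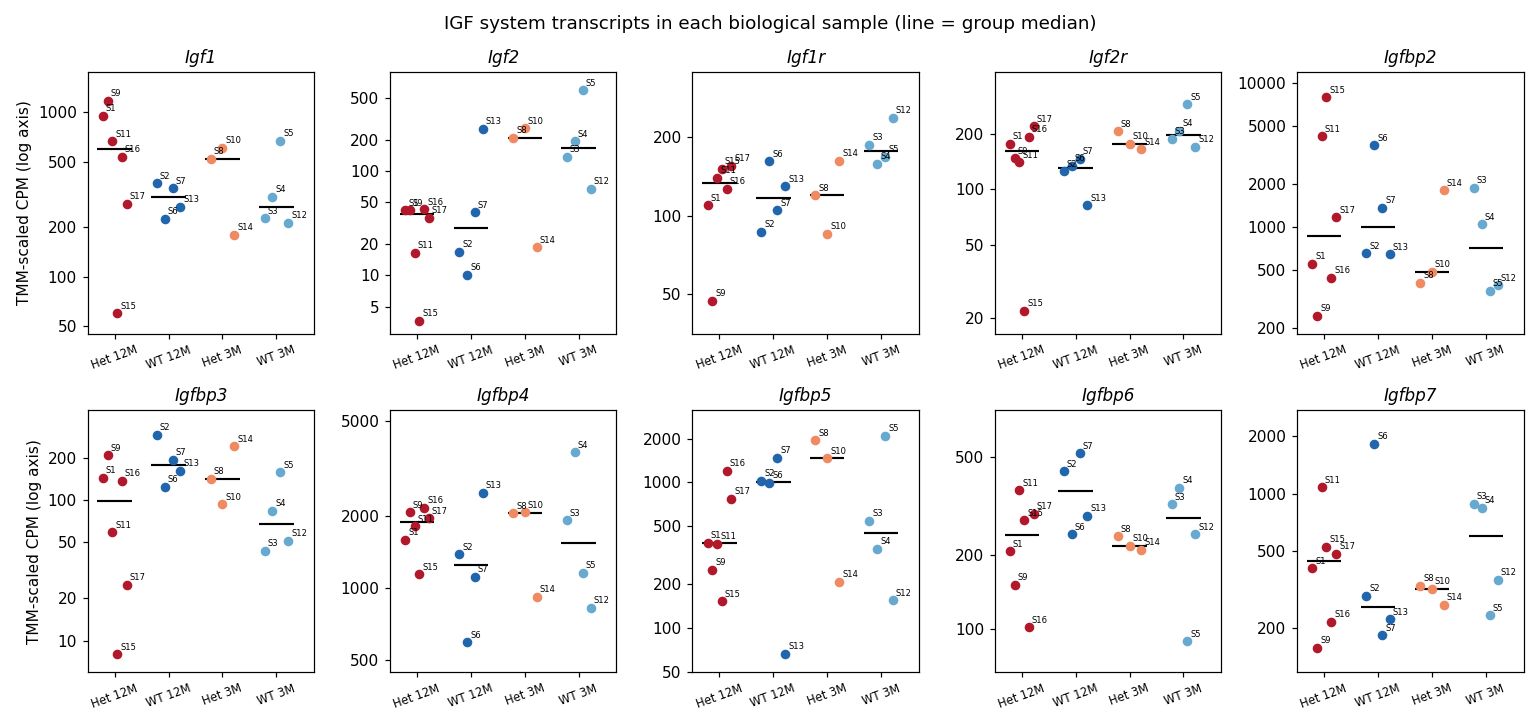
TMM-scaled CPM (log axis, its range set for each gene) of the 10 IGF genes, with 1 point per biological sample labelled by its S number, groups from left to right as Het 12M, WT 12M, Het 3M and WT 3M, and a line at the group median. Het 12M S15 lies lowest for Igf1, Igf2, Igf2r and Igfbp3 and highest for Igfbp2, and WT 3M S5 lies highest for Igf2, Igf2r and Igfbp5.

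Igf1r, the signalling receptor, had its highest mean in WT 3M. In CPM, Het 12M had 47.2 (lowest, S9), 133 (median) and 155 (highest, S17), and WT 12M had 86.6, 161, 105 and 129 in S2, S6, S7 and S13. Het 3M had 119.5, 85.05 and 162 in S8, S10 and S14, whereas WT 3M S3, S4, S5 and S12 reached 187, 158, 168 and 236. The lowest WT 3M library lay above all others except WT 12M S6 and Het 3M S14. Both fitted differences that share WT 3M ran the same way, at -0.64 ± 0.32 in WT 12M against WT 3M (interval -1.31 to 0.03, edgeR adjusted p = 0.621) and -0.61 ± 0.35 in Het 3M against WT 3M (interval -1.34 to 0.12, edgeR adjusted p = 0.9999). It was 0.01 ± 0.29 in Het 12M against WT 12M (interval -0.60 to 0.62) and -0.01 ± 0.32 in Het 12M against Het 3M (interval -0.68 to 0.66). The interaction was 0.62 ± 0.45. Igf1r (Entrez Gene 16001) lies on chromosome 7 from 67952257 to 68233668, forward strand.

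Igf2r, the clearance receptor for IGF2 and expressed from the maternal allele in most mouse tissues, was the 1 member whose libraries did not overlap in a comparison. WT 12M had 126, 134, 146 and 82.0 CPM in S2, S6, S7 and S13, all below the 187, 208, 289 and 170.4 CPM of WT 3M S3, S4, S5 and S12. Over all genes tested, 8.1% did not overlap in WT 12M against WT 3M, and 4.07% did so with WT 12M lower. Igf2r differed by -0.81 ± 0.44 (interval -1.74 to 0.12, edgeR adjusted p = 0.637), between -0.91 and -0.63 when any 1 library was left out. In the comparisons of Het 12M with WT 12M, Het 3M with WT 3M and Het 12M with Het 3M, 0 of the 10 genes were free of overlap, against 1.32%, 6.78% and 1.91% of all genes tested. Het 12M had 21.97 (lowest, S15), 162 (median) and 219 (highest, S17) CPM, and Het 3M had 206, 176 and 165 CPM in S8, S10 and S14. S15 was thus far below the other 16 libraries, whose lowest was 82.0 CPM. The difference was 0.29 ± 0.40 in Het 12M against WT 12M, -0.23 ± 0.47 in Het 3M against WT 3M and -0.28 ± 0.43 in Het 12M against Het 3M, and the interaction was 0.52 ± 0.62. Igf2r (Entrez Gene 16004) lies on chromosome 17 from 12682406 to 12769706, reverse strand, and its exons share 0 bases with those of its antisense RNA Airn.

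Igfbp2 had the widest span in CPM of the binding protein genes, while the ratio of highest to lowest library was 32.8 for it and 36.4 for Igfbp3. Its highest 3 cultures came from both 12-month groups. Its protein binds IGF2 more strongly than IGF1 and also binds integrins. Het 12M had 242 (lowest, S9), 862 (median) and 7956 (highest, S15) CPM, with S11 at 4275. WT 12M had 655.5, 3687, 1362 and 647 CPM in S2, S6, S7 and S13, Het 3M had 411, 490.3 and 1796 in S8, S10 and S14, and the WT 3M values were 1881, 1042, 362 and 394 in S3, S4, S5 and S12. The groups overlapped in every comparison, and Het 12M held both the lowest and the highest library. In Het 12M against WT 12M the log2 difference was 0.62 ± 0.90, with -0.26 without Het 12M S15 and 1.45 without WT 12M S6. It was -0.03 ± 1.05 in Het 3M against WT 3M, between -1.04 without Het 3M S14 and 0.59 without WT 3M S3. In WT 12M against WT 3M, 0.79 ± 0.98 became -0.06 without WT 12M S6, which also held the most Schwann and neural crest markers. It was 1.44 ± 1.04 in Het 12M against Het 3M, or 0.55 without Het 12M S15 and 2.44 without Het 3M S14, and the interaction was 0.65 ± 1.39, or -0.23 without Het 12M S15. The edgeR adjusted p of Igfbp2 was at least 0.795.

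Igfbp5, whose promoter is shown above beside that of its neighbour, encodes the binding protein that is abundant in bone matrix. Het 12M had 153 (lowest, S15), 382 (median) and 1205 (highest, S16) CPM. WT 12M had 1028, 993, 1483 and 66.5 CPM in S2, S6, S7 and S13, Het 3M had 1950, 1465 and 207 in S8, S10 and S14, and WT 3M S3, S4, S5 and S12 stood at 545, 350.4, 2095 and 155. WT 12M, Het 3M and WT 3M thus each held a culture of at least 1483 CPM and one of at most 207 CPM. Several within-group extremes fell in the cultures that were extreme for Igfbp2. Het 12M S15 and Het 3M S14 had the least Igfbp5 and the most Igfbp2 of their groups, Het 3M S8 and WT 3M S5 had the most Igfbp5 and the least Igfbp2, and WT 12M S13 had the least of both. Igfbp5 differed by -0.77 ± 0.81 in Het 12M against WT 12M, 0.62 ± 0.96 in Het 3M against WT 3M, 0.18 ± 0.90 in WT 12M against WT 3M and -1.20 ± 0.87 in Het 12M against Het 3M. The interaction was -1.39 ± 1.26, and the edgeR adjusted p of Igfbp5 was at least 0.813. In WT 12M against WT 3M the difference was 1.35 without WT 3M S5 and -0.18 without WT 12M S7. In Het 3M against WT 3M it was 1.78 without WT 3M S5 and 0.07 without Het 3M S8. In Het 12M against WT 12M it lay between -1.21 without Het 12M S16 and -0.40 without WT 12M S7, in Het 12M against Het 3M between -1.70 without Het 3M S14 and -0.67 without Het 3M S8, and in the interaction between -2.54 without WT 3M S5 and -0.83 without Het 3M S8. Osteoblast markers were fitted higher in Het 3M than in WT 3M for 8 of the 8 tested, at a median log2 difference of 1.24 with 0 called by edgeR, or 7 of 8 at 0.78 without Het 3M S14. Het 3M S14, with 6838 CPM of these markers against 2005 and 2024 CPM in S8 and S10, had the least Igfbp5 of its group. Spp1 alone held 6078 CPM of that sum in S14, and 1568 and 1632 CPM in S8 and S10. Ibsp was also higher in S14, at 557 against 164 and 148.5 CPM, while Alpl was lower, at 54.1 against 175 and 165 CPM. The part of the osteoblast markers in the Igfbp5 values was not tested.

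Igfbp4 encodes a protein that inhibits IGF action until the protease PAPP-A cuts it. It was the steadiest of the abundant binding protein genes in Het 12M, at 1137 (lowest, S15), 1875 (median) and 2153 (highest, S16) CPM. WT 12M had 1378, 591, 1107 and 2493 CPM in S2, S6, S7 and S13, Het 3M had 2046, 2068 and 913 in S8, S10 and S14, with 1914, 3686, 1152 and 821 in WT 3M S3, S4, S5 and S12. All groups overlapped. Igfbp4 differed by 0.36 ± 0.43 in Het 12M against WT 12M, -0.18 ± 0.51 in Het 3M against WT 3M, -0.44 ± 0.47 in WT 12M against WT 3M and 0.09 ± 0.47 in Het 12M against Het 3M. The interaction was 0.53 ± 0.67. The value at 3 months was 0.38 and that in WT with age 0.10 without WT 3M S4, the highest library.

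Igfbp3, the main IGF carrier of serum together with the acid-labile subunit, stood higher in most cultures labelled WT 12M than in WT 3M while the Het groups overlapped widely. WT 12M had 290.5, 124, 193 and 162 CPM in S2, S6, S7 and S13, against 43.6, 84.0, 158 and 51.1 in WT 3M S3, S4, S5 and S12. The Het 12M cultures had 7.98 (lowest, S15), 98.2 (median) and 208 (highest, S9) CPM, and Het 3M had 141, 93.3 and 241.5 in S8, S10 and S14. The WT groups overlapped through WT 3M S5 and WT 12M S6, while Het 12M covered nearly the range of Het 3M. On the log2 scale the difference was 1.19 ± 0.71 in WT 12M against WT 3M (interval -0.32 to 2.70, edgeR adjusted p = 0.648) and -0.71 ± 0.69 in Het 12M against Het 3M, or -0.30 without Het 3M S14 and -0.50 without Het 12M S15. It was -0.99 ± 0.63 in Het 12M against WT 12M and 0.92 ± 0.75 in Het 3M against WT 3M. The interaction, -1.91 ± 0.99 (interval -3.99 to 0.18, edgeR unadjusted p = 0.0706, adjusted p = 0.888), was not called, and it lay between -2.43 without WT 3M S5 and -1.50 without Het 3M S14. The 4 libraries with most chondrocyte markers, WT 12M S7 and S2, Het 3M S14 and WT 3M S5 at 23030, 12160, 17730 and 10810 CPM over 11 genes, had 193, 290.5, 241.5 and 158 CPM of Igfbp3. The next, WT 3M S12 at 8450 CPM of the markers, had 51.1 CPM of Igfbp3, and Het 12M S9 had 208 CPM of Igfbp3 at 2779 CPM of the markers. Comp alone held 18270, 10030, 14110 and 5277 CPM of the sums in WT 12M S7 and S2, Het 3M S14 and WT 3M S5. Col2a1 stood at 830 CPM in WT 12M S2, below the 2787 CPM of WT 3M S12. The 11 chondrocyte markers summed to 2463 to 4167 CPM in Het 12M, and their part in the Igfbp3 values was not tested. Igfbp3 (Entrez Gene 16009) lies on chromosome 11 from 7206086 to 7215498, reverse strand.

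Igfbp6 encodes the binding protein with a marked preference for IGF2. Het 12M had 101 (lowest, S16), 241.5 (median) and 365 (highest, S11) CPM of it, and WT 12M had 437, 242, 517 and 288 in S2, S6, S7 and S13. Het 3M had 238, 218 and 209.6 in S8, S10 and S14, and WT 3M S3, S4, S5 and S12 gave 321, 374, 88.9 and 242.5. Igfbp6 differed by -0.67 ± 0.38 in Het 12M against WT 12M (interval -1.47 to 0.12, edgeR adjusted p = 0.654), where the highest 2 WT libraries lay above all Het libraries. It was -0.21 ± 0.45 in Het 3M against WT 3M, or 0.04 without WT 3M S4, 0.53 ± 0.42 in WT 12M against WT 3M and 0.07 ± 0.42 in Het 12M against Het 3M, and the interaction was -0.46 ± 0.59. Igfbp6 (Entrez Gene 16012) lies on chromosome 15 from 102144186 to 102149512, forward strand.

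Igfbp7 encodes a related protein that binds IGF weakly and insulin more strongly. Het 12M had 156 (lowest, S9), 447 (median) and 1082 (highest, S11) CPM, and WT 12M had 294, 1821, 183 and 221 in S2, S6, S7 and S13. Het 3M had 332, 319.7 and 263 in S8, S10 and S14, and WT 3M had 887, 844, 231 and 356 in S3, S4, S5 and S12, so that groups overlapped throughout. WT 12M S6 was the highest of all libraries and lay far above the others of its group, and without it the direction turned in both comparisons of that group. The difference in Het 12M against WT 12M was -0.39 ± 0.64, or 1.04 without S6. In WT 12M against WT 3M it was 0.12 ± 0.71, or -1.33 without S6. It was -0.93 ± 0.78 in Het 3M against WT 3M and 0.65 ± 0.73 in Het 12M against Het 3M, and the interaction was 0.53 ± 1.00, or 1.97 without S6. The edgeR adjusted p of Igfbp7 with all libraries was at least 0.887. S6 held 1215 CPM of the Schwann and neural crest markers, against 21.2 to 97.6 CPM in Het 12M, 25.9 to 107 in the other WT 12M libraries, 45.3 to 115 in Het 3M and 30.8 to 109 in WT 3M. It also held the most smooth muscle and pericyte markers, 7258 CPM. Of the Schwann and neural crest sum in S6, Ngfr alone held 722 CPM. S100b was lower in S6, at 13.1 CPM, than in WT 12M S2 and S7, at 48.0 and 91.35 CPM. Every other marker of that list was highest in S6. S100b also made up most of the highest Het 12M sum, at 95.65 CPM in S15. All 9 Schwann and neural crest markers were fitted lower in Het 12M than in WT 12M, with a median log2 difference of -4.25 and 0 called by edgeR. Without S6, 6 of the 8 still tested were lower, at a median of -0.76, and their part in the Igfbp7 values was not tested. Of the 1209 exon bases of Igfbp7 (Entrez Gene 29817, chromosome 5, 77349240 to 77408045, reverse strand), 85 overlap Polr2b on the other strand.

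Across members, a few libraries held most of the extremes. Het 12M S15 was the lowest of the 17 libraries for 4 members and the highest for 1, and Het 12M S9 was the lowest for 3 and the highest for 1. WT 3M S5 was the lowest for 1 and the highest for 3. Het 12M S1, S11, S16 and S17, Het 3M S8, S10 and S14 and WT 3M S3 were never at either end.

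**Figure D4:**
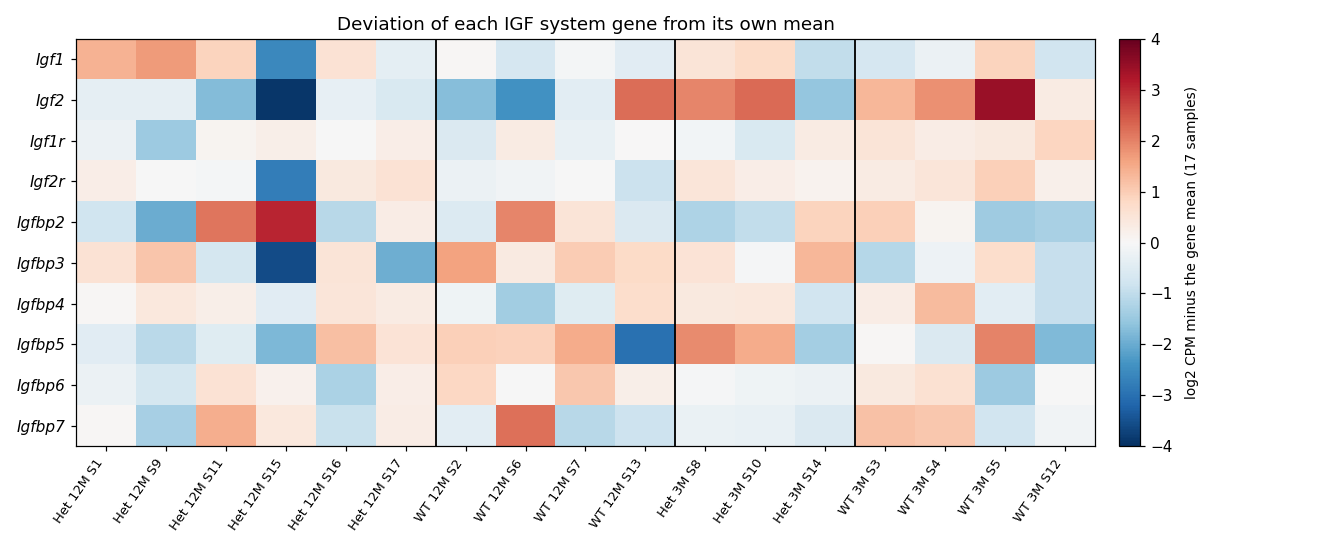
Difference of each library's log2 CPM from the mean of that gene over the 17 libraries (colour, red above and blue below), with genes in rows and biological samples in columns, groups divided by lines in the order Het 12M, WT 12M, Het 3M and WT 3M. The darkest blue fields are Igf2 and Igfbp3 in Het 12M S15, at 3.66 and 7.98 CPM, and the darkest red is Igf2 in WT 3M S5 at 598 CPM.

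The count of IGF genes called depended on the test. With limma voom and sample quality weights, which let libraries near their group's fitted mean count for more, 6 of the 10 genes were called in Het 3M against WT 3M, where 8.67% of all genes were called. Igfbp5 was fitted higher by 1.78 ± 0.48 (limma adjusted p = 0.0285), Igfbp3 by 1.35 ± 0.33 (0.0197) and Igf1 by 1.04 ± 0.26 (0.0206), while Igfbp2 stood at -1.58 ± 0.45 (0.039), Igfbp7 at -1.26 ± 0.32 (0.0231) and Igf1r at -0.71 ± 0.16 (0.0129). The weights were 8.88, 2.95 and 0.695 for Het 3M S8, S10 and S14 and 7.32, 1.96, 0.306 and 0.937 for WT 3M S3, S4, S5 and S12. S8 and S3 thus had the highest weights of their groups, and S8 and S10 are the pair that were most alike. With S8 and S10 summed as 1 sample, an alternative chosen after seeing the data, 0 IGF genes and 0% of the 15310 genes tested were called, and Igfbp5 stood at 0.23 ± 0.85. With the labelled sex as a term the same test called 0 IGF genes and 0.141% of all genes, and voom without weights called 0 IGF genes. These 2 alternatives were also chosen after seeing the data. The labels behind the sex term go against the sex-linked transcripts in WT 12M S2, S6 and S13. In WT 12M against WT 3M the weighted test called 4 of 10 genes, where 10.1% of all genes were called: Igfbp3 at 2.04 ± 0.47 (limma adjusted p = 0.0142), Igf1r at -0.83 ± 0.21 (0.0224), Igfbp7 at -1.56 ± 0.42 (0.0266) and Igf2 at -2.14 ± 0.63 (0.0392). Of these, Igfbp3 and Igf1r were also called with S8 and S10 as 1 sample, where 6.94% of all genes were, and Igfbp3 and Igf2 with the sex term, where 7.78% were. The sign of Igfbp7, where S6 had a weight of 0.327, was opposite to that in edgeR. The weighted test called 0 of 10 in Het 12M against WT 12M (1.15% of all genes) and in Het 12M against Het 3M (0.00671%). With S8 and S10 as 1 sample or with the sex term, 0 were also called in Het 12M against WT 12M (0.0196% and 0.0403% of all genes) and in Het 12M against Het 3M (0% for both). It called 2 in the interaction (6.3%), Igfbp3 at -3.23 ± 0.64 (limma adjusted p = 0.0108) and Igfbp7 at 2.12 ± 0.59 (0.0409). With S8 and S10 as 1 sample 0 were called there (1.05%), and with the sex term 1 was, Igfbp3 at -3.41 (2.19%).

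**Figure D5:**
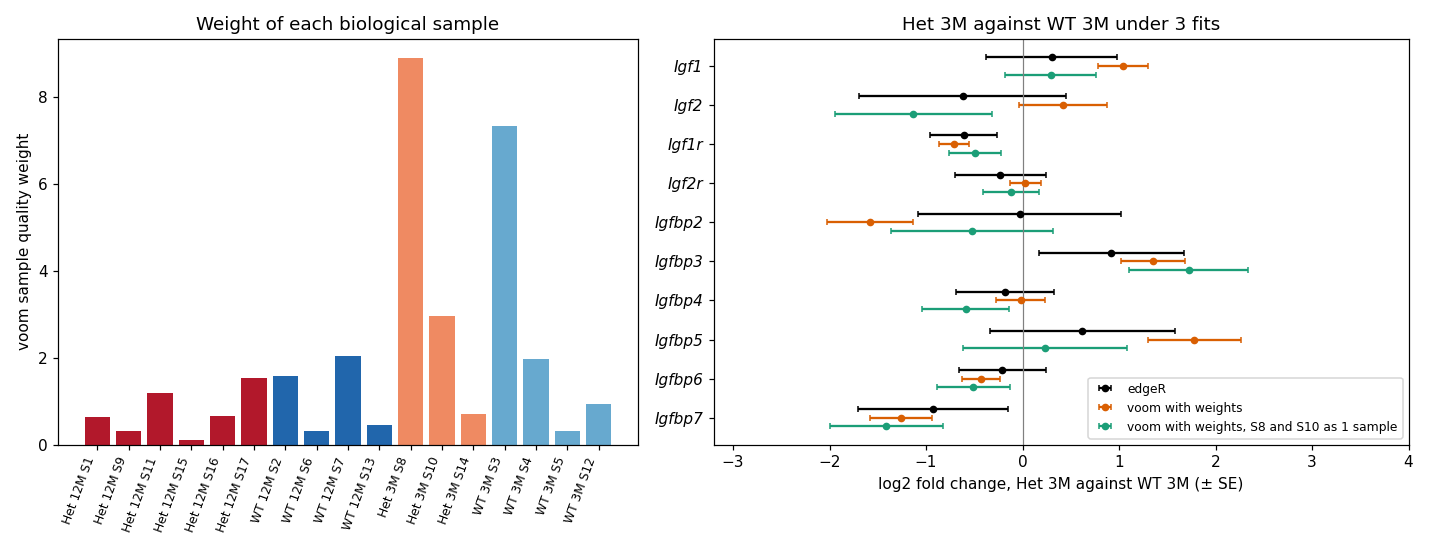
Left, the voom quality weight of each biological sample (vertical axis, no unit), and right, the log2 fold change ± SE of the 10 genes in Het 3M against WT 3M under edgeR, voom with weights, and voom with weights and Het 3M S8 and S10 as 1 sample. S8 and S3 have the highest weights, 8.88 and 7.32, and the error bars of the weighted test widen when S8 and S10 are joined.

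The other genes of the pathway were taken from 5 lists of 60 genes, of which 53 were tested and 0 were called by edgeR in any comparison. In Het 12M against WT 12M, 1 was higher and 6 were lower at an unadjusted edgeR p under 0.05. The counts were 0 and 1 in Het 3M against WT 3M, 2 and 4 in WT 12M against WT 3M, 0 and 1 in Het 12M against Het 3M, and 1 and 3 in the interaction. The 2 with the smallest p in each direction of each comparison are named. Over all genes tested, 3.44% were higher and 4.93% lower at that p in Het 12M against WT 12M, 0.812% and 0.792% in Het 3M against WT 3M, 4.67% and 3.55% in WT 12M against WT 3M, 1.56% and 1.72% in Het 12M against Het 3M and 2.5% and 3.26% in the interaction. Htra3, a secreted serine protease, stood at 88.0 CPM in Het 12M against 215 in WT 12M (-1.29 ± 0.49, edgeR adjusted p = 0.498) and at 215 in WT 12M against 74.4 in WT 3M (1.53 ± 0.56, edgeR adjusted p = 0.567). It stood at 124 CPM in Het 3M against 74.4 in WT 3M (0.73 ± 0.59), and its interaction was -2.02 ± 0.77 (edgeR adjusted p = 0.729). Stc1, which encodes stanniocalcin-1, an inhibitor of the protease PAPP-A, stood at 13.6 CPM in Het 12M against 54.8 in WT 12M (-2.01 ± 0.74, edgeR adjusted p = 0.468), with 157 CPM in WT 12M S13 and at most 35.75 CPM in the other WT 12M libraries. Grb10, an imprinted adaptor that dampens IGF1 receptor signalling, stood at 524 CPM in Het 12M against 316 in WT 12M (0.73 ± 0.34), and H19 at 217 against 64.1 CPM. Igf2bp3, which encodes an RNA-binding protein of Igf2 transcripts, stood at 1.24 CPM in Het 3M against 4.24 in WT 3M (-1.77 ± 0.60) and at 1.34 in WT 12M against 4.24 in WT 3M (-1.66 ± 0.54), without overlap of the libraries in either. It stood at 1.88 CPM in Het 12M against 1.24 in Het 3M (0.59 ± 0.55), and its interaction was 2.25 ± 0.78 (edgeR adjusted p = 0.692). Gsk3b, a kinase held inactive by AKT, stood at 94.3 CPM in WT 12M against 166 in WT 3M (-0.81 ± 0.26, without overlap, edgeR adjusted p = 0.552), with an interaction of 0.74 ± 0.37. Igfals, which encodes the acid-labile subunit, stood at 4.18 CPM in WT 12M against 1.05 in WT 3M (1.99 ± 0.89) and at 2.18 in Het 3M against 1.05 in WT 3M (1.06 ± 0.93), with an interaction of -2.73 ± 1.22. Foxo1, a transcription factor that AKT restrains, stood at 39.7 CPM in Het 3M against 66.9 in WT 3M (-0.75 ± 0.38). Mtor, the growth kinase downstream of AKT, stood at 42.1 CPM in Het 12M against 55.9 in Het 3M (-0.41 ± 0.18) and Grb14, another adaptor, at 136 against 201 CPM (-0.57 ± 0.31), while Adam12, a metalloprotease, stood at 29.5 against 17.1 CPM (0.79 ± 0.69). Igfbp1, a binding protein gene of liver, had 0 counts in all 17 libraries, which allows up to 0.219 CPM in the shallowest of them, counting error alone.

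For the 5 members whose SD exceeded 1 on the log2 CPM scale, the genes with the nearest pattern over the 17 libraries were found by the root mean square difference of mean-centred log2 CPM. They were Stk17b at 0.43, Tlr6 at 0.48 and COX3 at 0.52 for Igf1, and Fetub at 0.58 and Klhdc8a at 0.60 for Igfbp2. For Igfbp3 they were Snora81 at 0.57, Osbp2 at 0.61 and Kcnip4 at 0.69, and for Igfbp5 St8sia2 at 0.91, Matn3 at 0.92 and Cdsn at 0.93. The nearest to Igf2 were Sema3d at 1.07, Tek at 1.13 and Syt13 at 1.14. Tek is on the endothelial list but did not follow it: its highest level, 8.79 CPM, was in Het 12M S16, where Cdh5 had 0.103 CPM and Tie1 had 0. These distances were under the SD of the member itself in each case, which picking the smallest of all genes made likely beforehand. All 17 libraries enter each distance, those that stood apart included.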

How the data were processed

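RNA of 17 cultures was sequenced from libraries made with an Illumina TruSeq v2 kit, per the labels' protocols. The authors deposited 1 table of raw gene counts by Entrez Gene identifier, with 4 technical replicates of each culture in columns of their own. Subread, featureCounts and mm10 are named in the submitters' processing notes; versions and settings are not given in the sources used here. The 4 columns were summed (technical replicates differed by a chi-square per degree of freedom of 1.02 to 1.06), and 25275 of 27179 identifiers had a symbol in the gene name table. The other 1904 held 0.573% of counts. Groups follow the labels; the series text states 3 biological samples per group, where the labels give 3 to 6.

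Counts were tested with edgeR 4.0.16 (R 4.3.3): filterByExpr, TMM scaling and the quasi-likelihood test on 4 group terms with no sex term, over 17 samples, with Benjamini-Hochberg adjustment over 14897 genes at 0.05. The steps were tested on simulated data, with the rule for passing set at a spread below that measured here. Passing thus does not show how many true differences would be called at the measured spread. Levels are TMM-scaled CPM, divided by the union exon length of GENCODE M21 (on GRCm38, the assembly of mm10) where genes are compared. Log2 CPM used a prior count of 2. DESeq2 1.42.0, limma 3.58.1 voom, other scalings and filters, a sex term, the 2 groups alone and leaving out libraries were alternatives. A Y-linked covariate, Het 3M S8 and S10 as 1 sample, and voom with these changes, a sex term or no weights were added after seeing the data, as were marker lists without each library. Tables and figures used pandas 2.3.3, numpy 2.4.6 and matplotlib 3.10.9.

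The 10 genes, the pathway and marker lists and the rules were chosen with earlier results of these data known. Named genes are the 10 members, Ezh2, the 2 pathway genes of lowest p among those fitted higher and among those fitted lower where none passed the threshold, and the 3 nearest patterns of members with an SD over 1, predicted genes left out; 1 of these patterns is not reported here. H19 was described further, and Igfbp1 named, after their values were seen. Promoter windows come from RefSeq on GRCm38.p6, where all 10 members matched. Depth was 13687876 to 28597221 counts per culture, and limits from a count of 0 (3 counts) cover counting error only.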

Additional observations from a re-analysis of the deposited data

Results flagged for a closer look

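Each of the 10 IGF genes was searched in the groups of 4 and 6 cultures for a library whose gap to its nearest neighbour exceeded Dixon's critical value. Of the 30 combinations of gene and group, 2 exceeded it. Chance gives about 1 in 20 where values are normally distributed. The search used CPM without logs, so its chance rate here is not known. Igf2 in WT 12M stood out for S13 at 254.1 CPM, where the next highest library, S7, had 40.25 CPM. Igfbp7 in WT 12M stood out for S6 at 1821 CPM, where the next highest library, S2, had 294.1 CPM. S13 and S6 are among the libraries whose sex-linked transcripts go against their labels, S6 held 1215 CPM of the Schwann and neural crest markers, and the part of either in these values was not tested.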

How the results depend on the processing

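No paired analysis was possible because each S number occurs in 1 group only and the shared numbers count technical replicates of 1 culture. Over 1540 alternative values of the 50 log2 differences, 1444 kept their direction and their side of the threshold, 80 changed sign and 16 passed the threshold anew with the same sign, each of these with voom and quality weights. Of the sign changes, 1 was also past the threshold, Igfbp7 in WT 12M against WT 3M with that test. The sign changes concerned 23 differences, none over 1.4 in size with all libraries and the main test. For those listed below the cause was not tested. No call of an IGF gene was made when any 1 library was left out. With library totals alone, Igf1r in Het 12M against WT 12M was -0.01. DESeq2 called 106 genes in Het 12M against WT 12M, 53 in WT 12M against WT 3M, 1 in Het 12M against Het 3M and 35 in the interaction. Voom with quality weights called 6 IGF genes among 1292 genes in Het 3M against WT 3M, 171 genes in Het 12M against WT 12M, 4 among 1508 in WT 12M against WT 3M, 1 gene in Het 12M against Het 3M and 2 among 939 in the interaction. It turned Igf2 to 0.42 and Igf2r to 0.03 in Het 3M against WT 3M, Igfbp7 to 0.86 in Het 12M against WT 12M, and Igf1 to 0.43, Igfbp2 to -0.43 and Igfbp7 to -1.56 in WT 12M against WT 3M. It also turned Igf1 to -0.02, Igf1r to 0.18 and Igfbp4 to -0.08 in Het 12M against Het 3M and Igf1 to -0.45 in the interaction. With S8 and S10 as 1 sample it called 3 genes in Het 12M against WT 12M, 2 IGF genes among 1063 in WT 12M against WT 3M and 160 genes in the interaction. There Igfbp7 was 0.83 in Het 12M against WT 12M, Igf1 0.41, Igfbp2 -0.39 and Igfbp7 -1.54 in WT 12M against WT 3M, and Igf2 0.93 in the interaction. With the sex term it called 21, 6, 1159 and 326 genes in Het 3M against WT 3M, Het 12M against WT 12M, WT 12M against WT 3M and the interaction, with 2 IGF genes in WT 12M against WT 3M and 1 in the interaction. There Igfbp2 was -0.01 and Igfbp7 0.78 in Het 12M against WT 12M, Igf1 0.32 and Igfbp7 -1.41 in WT 12M against WT 3M, Igf1r 0.19, Igfbp4 -0.01 and Igfbp6 -0.09 in Het 12M against Het 3M, and Igf1 -0.21 and Igf2 0.06 in the interaction. Voom without weights gave Igf1r -0.05, Igfbp2 -0.05 and Igfbp7 0.04 in Het 12M against WT 12M, Igfbp7 -0.37 in WT 12M against WT 3M, Igfbp6 -0.06 in Het 12M against Het 3M, and Igf2 0.26 and Igfbp2 -0.03 in the interaction. In edgeR a sex term gave Igfbp2 0.24 in Het 3M against WT 3M, Igfbp6 -0.02 in Het 12M against Het 3M and Igf2 1.01 in the interaction. The Y-linked covariate gave Igfbp4 0.07 in Het 3M against WT 3M and Igf1r 0.03, Igfbp4 -0.24 and Igfbp6 -0.01 in Het 12M against Het 3M. Without WT 12M S6 and the Het 12M libraries S15 and S9, Igfbp7 was 1.24 in Het 12M against WT 12M, 2 genes were called in WT 12M against WT 3M with Igfbp2 at -0.06 and Igfbp7 at -1.33, and Igf1r was 0.11 in Het 12M against Het 3M. With S8 and S10 as 1 sample in edgeR, Igfbp2 was 0.29 in Het 3M against WT 3M. Leaving out 1 library at a time, Het 3M against WT 3M ran from -0.03 to 0.81 for Igf1, -1.15 to 0.28 for Igf2, -1.04 to 0.59 for Igfbp2, -0.43 to 0.38 for Igfbp4 and -0.49 to 0.04 for Igfbp6. Het 12M against WT 12M ran from 0 to 2 genes called (2 without WT 12M S13), -1.76 to 0.42 for Igf2, -0.11 to 0.19 for Igf1r, -0.26 to 1.45 for Igfbp2 and -0.81 to 1.04 for Igfbp7. WT 12M against WT 3M ran from 0 to 1 gene called (1 without Het 12M S15), -0.40 to 0.27 for Igf1, -0.06 to 1.41 for Igfbp2, -0.88 to 0.10 for Igfbp4, -0.18 to 1.35 for Igfbp5 and -1.33 to 0.41 for Igfbp7. Het 12M against Het 3M ran from -0.21 to 0.25 for Igf1r, -0.21 to 0.26 for Igfbp4 and -0.11 to 0.20 for Igfbp6, and the interaction from -1.68 to 1.03 for Igf2, -0.23 to 1.66 for Igfbp2 and -0.03 to 0.96 for Igfbp4. The shallowest library held 13687876 counts and the lowest member count in any library was 56, for Igf2.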
